A study of Mus musculus with 6 samples.

Results

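The collagen genes were taken as the rows of the deposited count table whose Entrez number maps to a mouse symbol made of Col, a type number, the letter a and a chain number. Of 15295 rows, 30 matched, out of 44 such symbols in RefSeq, and the other 14 genes were not analysed here. All 30 passed the filter on low counts. The data are bulk RNA sequencing of 6 whole tumours of the NA13 line. NA13 derives from a bladder cancer of the mouse and is described by the series as high in DDR2, and the strain is given as C57BL/6. Tumour cells carried a scrambled shRNA in 3 tumours, the controls, and an shRNA directed at Ddr2 in 3, and IgG was given in every case. The labels give neither the age of the animals, nor the number of clones, nor whether each tumour came from its own animal. A p-value here therefore reflects only how these libraries vary, and some of that variation may be technical. As the tissue was homogenised whole, tumour cell and host cell RNA are mixed, and fewer cells of a type cannot be told apart from less RNA per cell.

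Collagens are extracellular matrix proteins whose alpha chains wind into a rope-like helix of repeated glycine triplets. Fibrillar collagens pack into the cables of connective tissue, network collagens form the sheets of basement membranes and related lattices, FACIT collagens (fibril-associated, with interrupted helices) sit on the surface of fibrils, and beaded collagens, type VI, form fine microfibrils near cells. Multiplexins lie in basement membrane zones, and transmembrane collagens are held in the plasma membrane. In tumours most fibrillar collagen is made by fibroblasts, basement membrane collagen also by vessels and epithelium, and DDR2, a receptor tyrosine kinase, is activated by fibrillar collagen.

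Levels are given as CPM, a gene's counts relative to its library's total after TMM, a scaling that sets most genes level between libraries. Total counts ranged from 15560571 to 19522985 per library. Ddr2, the targeted gene, stood at 6.42, 16.7 and 20.5 CPM in control 1 to 3. Libraries labelled shDdr2 1 to 3 had 4.84, 19.0 and 28.6 CPM. Its level was not lower as a group, so directions here are between libraries as labelled. The library labelled shDdr2 1 stood apart from the other 5 on the first principal component of all genes (-85.2, against -16.3 to 45.7). Of 11 urothelial markers 9 were listed and tested, while Upk1a and Upk3a had no row used here. Krt5, of basal urothelium, was at 4939 to 5954 CPM over the 6 libraries. In edgeR 7 of the 9 were fitted lower in the libraries labelled shDdr2 (median log2 fold change -0.39) and 0 passed the test. Over all genes tested 6216 of 14498 were fitted lower, with a median of 0.04. Groups did not overlap for 3 of the 9 markers (33.3%, against 4.32% of all genes). Epcam was at 286, 284 and 231 against 207, 214 and 192 CPM. Krt18 was at 120.1, 84.0 and 72.4 against 36.5, 72.1 and 66.6 CPM. Krt8 was low, at 14.1 to 30.4 against 0.289 to 11.8 CPM, with its lowest value in shDdr2 1.

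The 250 bases before the annotated start are shown for 3 genes that shared 1 order of the libraries (Col3a1, Col5a1 and Col6a3) and for 2 that did not (Col17a1 and Col4a5). They come from RefSeq's promoter table for GRCm38.p6, which held 25 of the 30 genes, 5′ to 3′ on the gene's strand. Bases that GENCODE M21 annotates as exon are left off the last 2, which ends them 52 and 34 bases before the start. Capitals mark 4 motifs on either strand. They are TATAAA, the core of the TATA box, then CCAAT, a box bound by NF-Y, then GGGCGG, the GC box of Sp1, and TGANTCA, the site shape of AP-1 factors. The spans are chr1:45311288-45311537 (plus strand), chr2:27886175-27886424 (plus), chr1:90843972-90844221 (minus), chr19:47692095-47692292 (minus) and chrX:141475169-141475384 (plus).
Col3a1: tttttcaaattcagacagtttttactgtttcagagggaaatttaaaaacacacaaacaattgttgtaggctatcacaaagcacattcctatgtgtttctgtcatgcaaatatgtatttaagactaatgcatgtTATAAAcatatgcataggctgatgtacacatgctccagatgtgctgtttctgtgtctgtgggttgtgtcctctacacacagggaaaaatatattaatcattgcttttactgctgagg
Col5a1: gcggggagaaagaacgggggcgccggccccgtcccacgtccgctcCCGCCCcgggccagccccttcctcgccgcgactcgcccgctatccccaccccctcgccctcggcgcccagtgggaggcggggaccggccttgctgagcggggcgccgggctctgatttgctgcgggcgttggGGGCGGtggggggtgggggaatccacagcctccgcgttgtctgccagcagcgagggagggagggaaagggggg
Col6a3: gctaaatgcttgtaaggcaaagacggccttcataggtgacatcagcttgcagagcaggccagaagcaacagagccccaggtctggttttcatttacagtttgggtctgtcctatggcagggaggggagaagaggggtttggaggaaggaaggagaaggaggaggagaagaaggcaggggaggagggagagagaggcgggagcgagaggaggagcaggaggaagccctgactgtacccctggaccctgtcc
Col17a1: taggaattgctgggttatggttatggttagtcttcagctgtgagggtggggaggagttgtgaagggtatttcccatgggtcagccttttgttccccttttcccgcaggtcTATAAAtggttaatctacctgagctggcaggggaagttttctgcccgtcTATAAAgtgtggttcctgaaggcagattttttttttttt
Col4a5: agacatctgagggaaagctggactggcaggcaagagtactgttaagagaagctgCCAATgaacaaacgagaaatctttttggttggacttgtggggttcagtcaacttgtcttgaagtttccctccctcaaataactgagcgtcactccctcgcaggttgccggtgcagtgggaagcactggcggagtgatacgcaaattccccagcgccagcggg

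The 5 printed windows differed in base composition and in the motifs they held. GC content was 35.2% for Col3a1, 76.4% for Col5a1 and 57.2% for Col6a3. Counted from the start, Col3a1 held TATAAA at position -117, Col5a1 held the GC box on opposite strands at -205 and -73, and Col6a3 held none of the motifs. The printed Col17a1 window held TATAAA at -140 and -91, and that of Col4a5 held CCAAT at -196. Of 32851 windows of 250 bases in the table, the TATA box core was in 12.4%, the CCAAT box in 33.8%, the GC box in 32.7% and the AP-1 shape in 6.75%. The 25 matched collagen genes had 27 windows, since Col18a1 and Col6a2 have 2 each, and there the numbers were 4, 10, 16 and 1. A match is a run of letters and not evidence of a bound site.

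Gene structure separated the fibrillar genes from the other classes. Fibrillar helix exons are known for a unit of 54 bases and for lengths related to it (45, 99, 108 and 162 bases). In the longest coding model of each gene in GENCODE M21 (GRCm38), 447 of 595 coding exons of the 10 fibrillar genes had one of these 5 lengths (75.1%), and single genes ran from 68.2% to 82.7%. The share was 16.7% over 5 network genes, 20.9% over 5 FACIT genes, 14.3% over 3 beaded genes, 4.94% over 2 multiplexins and 19.0% over 3 transmembrane genes. The nearest gene outside the fibrillar class was Col9a3, a FACIT chain, with 50.0%. Col8a1 and Col8a2, whose coding sequence lies in 2 exons each, had 0 such exons.

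**Figure D1:**
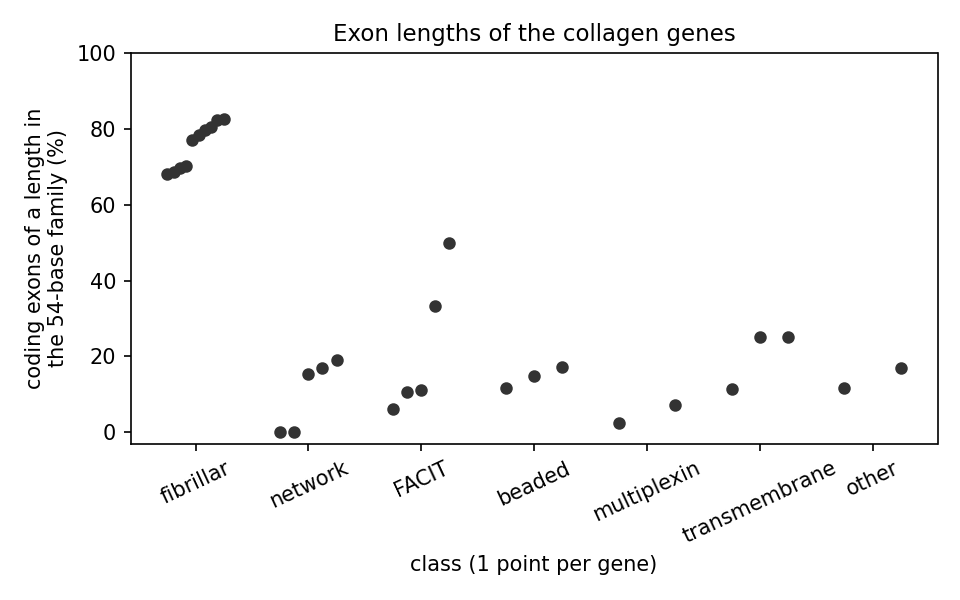
Share of coding exons with a length of 45, 54, 99, 108 or 162 bases (y axis, percent) by collagen class (x axis), with 1 point per gene. The 10 fibrillar genes lie between 68.2% and 82.7%, and Col9a3, at 50.0%, is the highest of the rest.

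Per length of transcript, 4 genes stood far above the rest of the family. Mean levels over the 6 libraries were 278 CPM per kb for Col17a1, 268 for Col3a1, 248 for Col1a1 and 219 for Col1a2, followed by 48.6 for Col4a1 and 41.7 for Col5a2. Col17a1 encodes the transmembrane collagen of hemidesmosomes, which anchor basal epithelial cells, Col1a1 and Col1a2 the chains of type I collagen, and Col3a1 type III. Differences among these 4 were not tested, and each ranged by 1.96-fold or more over the libraries. Within libraries, Col3a1 was above Col1a1 except in shDdr2 3, and Col1a1 was above Col1a2 except in shDdr2 1. Col17a1 had rank 1 in 5 libraries and rank 4 in that labelled shDdr2 3, where Col1a1 led at 604 CPM per kb. Using the union of exons as the length gave the same first 7 genes in the same order. At the low end, 8 genes averaged under 10 CPM, among them Col11a1 and Col11a2, the type XI chains of cartilage. Of 9 cartilage and bone markers, 2 had a row, Matn3 and Comp, at 0.162 to 1.80 CPM.

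**Figure D2:**
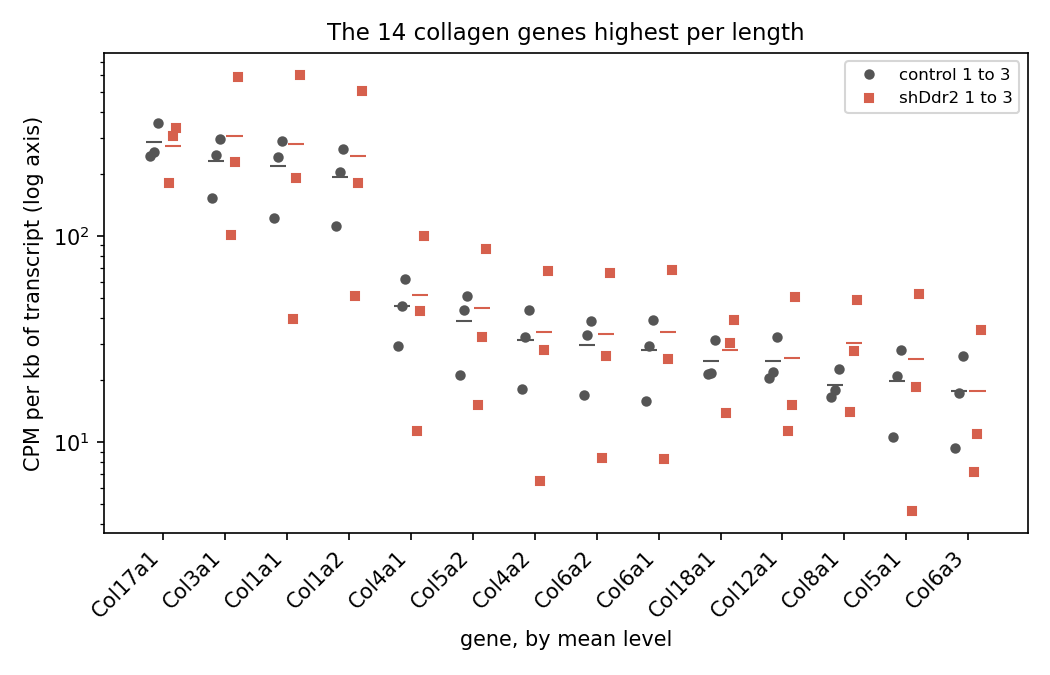
Level per length (CPM per kb of transcript, log axis) of the 14 highest collagen genes, ordered by mean, with 1 point per library (circles control, squares labelled shDdr2) and a bar at each group's mean. The means of Col17a1, Col3a1, Col1a1 and Col1a2 lie above those of the rest, and for Col17a1 and Col1a1 the squares span a wider range than the circles.

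Collagen transcripts took 0.249% of all counts in the library labelled shDdr2 1 (exact binomial interval 0.247% to 0.252%) and 1.70% (1.695% to 1.71%) in that labelled shDdr2 3. The shares in control 1 to 3 were 0.491%, 0.782% and 0.993%, and that of the library labelled shDdr2 2 was 0.736%, so the control range lay inside the range of the other group. These intervals cover counting error only. The make-up of the family moved too. Col1a1, Col1a2 and Col3a1 together held 39.0% of the family's summed CPM per kb in the library labelled shDdr2 1 and 61.6% in that labelled shDdr2 3, with 45.2% to 53.7% in the other 4. Col17a1 alone held 36.6% and 12.1% in those 2 libraries.

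No collagen gene passed the test between the groups. The edgeR quasi-likelihood test with Benjamini-Hochberg adjustment over 14498 genes called 0 of the 30 (0% of all genes), with a lowest unadjusted p of 0.160, for Col8a1. At an unadjusted p under 0.05 there were 0 of 30 in edgeR, against 1.44% of all genes, and 0 of 30 in DESeq2 and in limma on voom weights. The groups overlapped in all 30 genes, where 4.32% of all genes had no overlap. With all libraries 20 of 30 genes were fitted higher in the libraries labelled shDdr2 and 10 lower, with a median log2 fold change of 0.14, against 0.04 over all genes tested.

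The direction of the family turned on single libraries. Without the library labelled shDdr2 1, 24 of 30 genes were fitted higher (median 0.53), and without that labelled shDdr2 3 only 1 was (median -0.76). Leaving out control 1 gave 13 higher, and leaving out control 3 gave 25. With the replicate number of the titles as a block 7 were higher and 23 lower (median -0.19), and limma on voom weights, which averages logs, gave 6 and 24. Without the library labelled shDdr2 1, Col8a1 (log2 fold change 1.001), Col8a2 (1.23) and Col14a1 (1.31) had an unadjusted edgeR p of 0.00489, 0.00845 and 0.0248, with adjusted p from 0.658 to 0.705, in a fit where 6.95% of all genes had a p under 0.05. Without the library labelled shDdr2 3, Col12a1 (-0.91) and Col23a1 (-1.10) had an unadjusted edgeR p of 0.0221 and 0.0272 in the lower direction, with an adjusted p of 0.988, where 2.70% of all genes had a p under 0.05.

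**Figure D3:**
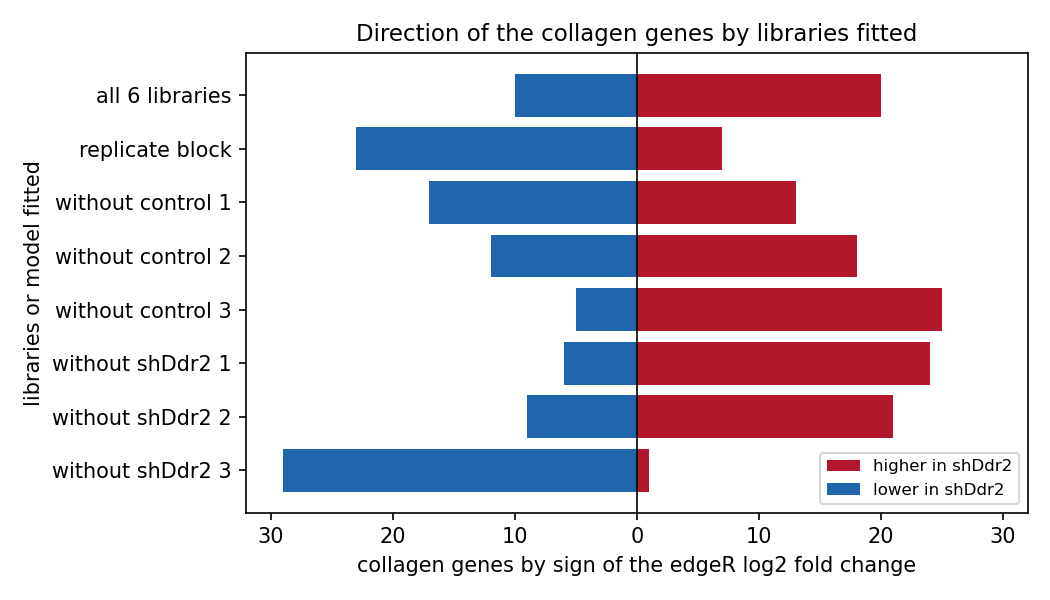
Number of collagen genes (x axis) fitted higher (right, red) or lower (left, blue) in the libraries labelled shDdr2, for the edgeR fit of all 6 libraries, with the replicate block, and without each library (y axis). The count of higher genes is 20 with all libraries, 1 without shDdr2 3 and 25 without control 3.

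Instead, the genes followed the libraries. The library labelled shDdr2 1 had the lowest level of 27 of 30 genes (90.0%, against 34.6% of all genes tested), and that labelled shDdr2 3 the highest of 22 (73.3%, against 20.3%). On plain library totals the counts were again 27 and 22, where the shares of all genes were 45.7% and 24.1%. In 14 genes the libraries had the same full order as in Col1a1, which was shDdr2 1, control 1, shDdr2 2, control 2, control 3 and shDdr2 3 from low to high, against 1.55% of all genes. These were 7 of 10 fibrillar genes, all 3 type VI genes, Col4a1, Col4a2, Col16a1 and Col15a1. The order was noticed in these data and is a description. The median gene spanned 5.94-fold from its lowest to its highest library, against 2.04-fold over all genes. In 27 genes with at least 10 counts in every library the span ran from 1.96-fold in Col17a1 to 15.2-fold in Col1a1.

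**Figure D4:**
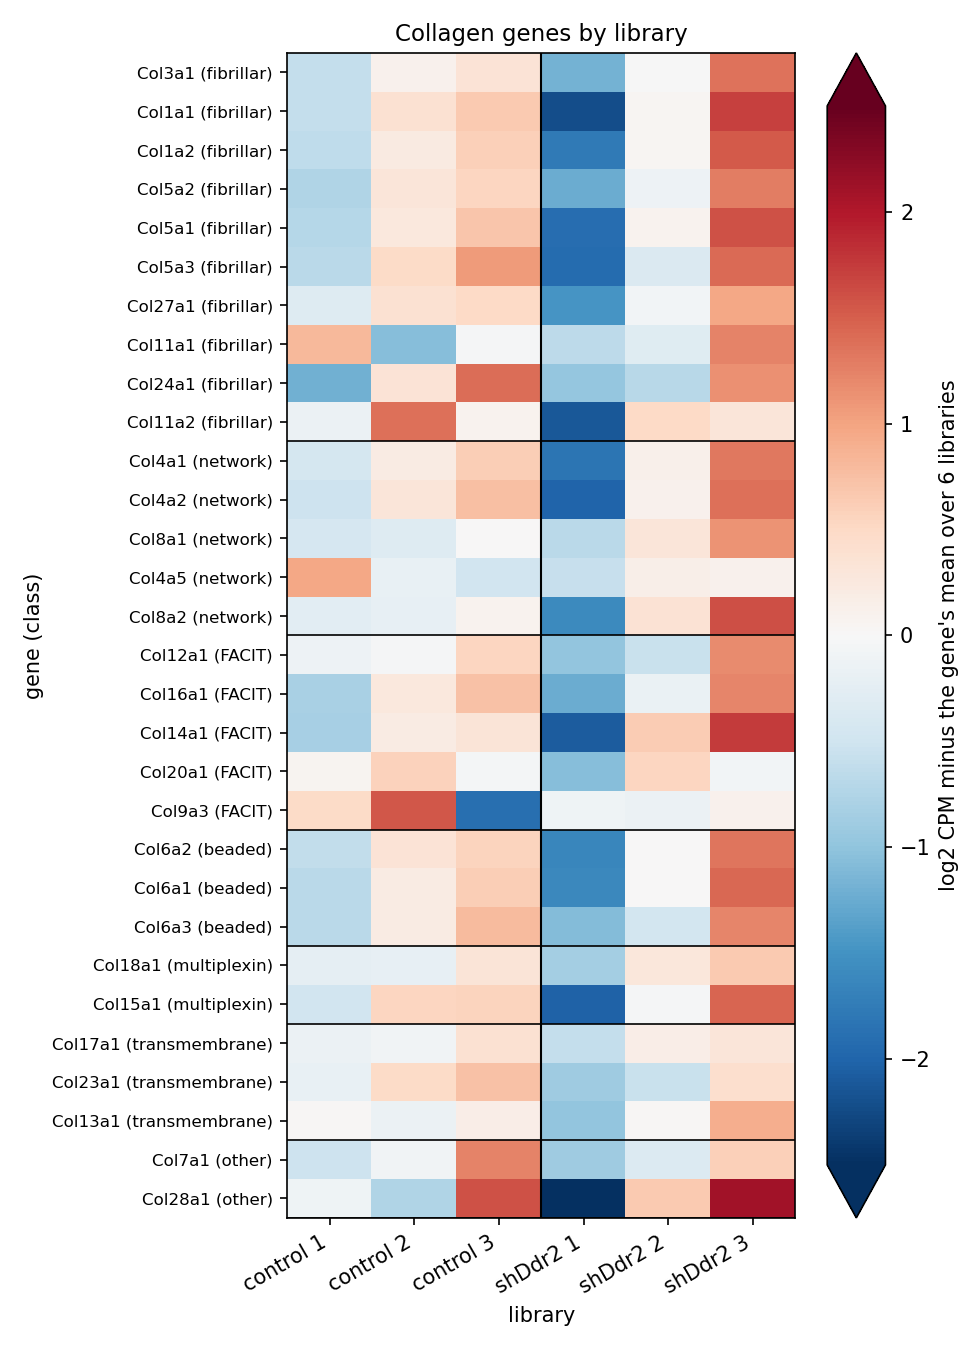
Log2 CPM of each collagen gene minus its mean over the 6 libraries (colour), with genes in rows by class and libraries in columns. The column of shDdr2 1 holds the lowest value of 27 genes and that of shDdr2 3 the highest of 22, while Col17a1 and Col4a5 show pale rows or another order.

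The spread was wider among the libraries labelled shDdr2. The median SD of a collagen gene's log2 CPM was 0.64 in control tumours and 1.25 in the others. Over all genes tested the median SD also rose, from 0.253 to 0.451. In the libraries labelled shDdr2 26 of 30 collagen genes had the larger SD (86.7%, against 71.7% of all genes). By replicate number, taken as pairing the libraries, 29 of 30 genes were lower in shDdr2 than in control for number 1 (median log2 difference -1.07), 21 for number 2 (-0.21) and 5 for number 3 (0.68). Over all genes tested the shares lower were 50.4%, 51.2% and 50.1%.

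Among the fibrillar, network, FACIT and beaded classes, the class means of fibrillar and beaded genes spanned the widest range. By single genes the ranking differed. The median network gene spanned 8.89-fold over the libraries, against 7.98-fold for fibrillar, 7.86-fold for beaded and 5.56-fold for FACIT genes. The mean log2 CPM of the 10 fibrillar genes was 5.31, 6.06 and 6.36 in control 1 to 3, against 4.29, 5.69 and 7.03 in libraries labelled shDdr2 1 to 3, a range of 2.74. The 3 beaded genes had 6.30, 7.21 and 7.62 against 5.52, 6.81 and 8.29, a range of 2.76. The 5 network genes had 6.18, 6.28 and 6.53 against 4.997, 6.53 and 7.43, a range of 2.43. The control SD of the network mean was 0.18, where the fibrillar and beaded means had 0.54 and 0.68. By single genes the control SDs lay closer, with medians of 0.539 for network, 0.699 for fibrillar and 0.663 for beaded genes. Over control 1 to 3 Col4a5 fell while Col4a1 and Col4a2 rose. The 5 FACIT genes had 3.58, 4.31 and 3.86 against 2.76, 3.90 and 4.67, a range of 1.91 that includes the low-count chains Col9a3 and Col20a1. The mean of the transmembrane genes spanned 1.33, and the mean over all genes tested 0.07. The mean of Col7a1 and Col28a1, which belong to none of these classes, spanned 2.94. Alone, Col7a1 spanned 4.38-fold and Col28a1 47.7-fold, with 1 count in shDdr2 1 and 60 in shDdr2 3 for Col28a1.

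Group differences of these means, shDdr2 minus control, were small beside the ranges. They were -0.24 for fibrillar, -0.01 for network, -0.14 for FACIT and -0.17 for beaded genes, with SDs of 1.37, 1.23, 0.96 and 1.38 among the libraries labelled shDdr2. The signs differ from those of the edgeR medians of the same classes (0.23, 0.18, 0.05 and 0.18), which are medians over genes of a fit of mean counts. With the median of log2 CPM in place of the mean, the difference was 0.193 for network and 0.203 for FACIT genes, and kept its negative sign for fibrillar and beaded genes. No class difference kept its sign when libraries were left out. Without the library labelled shDdr2 3 the 4 differences lay between -0.92 and -0.57, and without that labelled shDdr2 1 between 0.37 and 0.65.

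**Figure D5:**
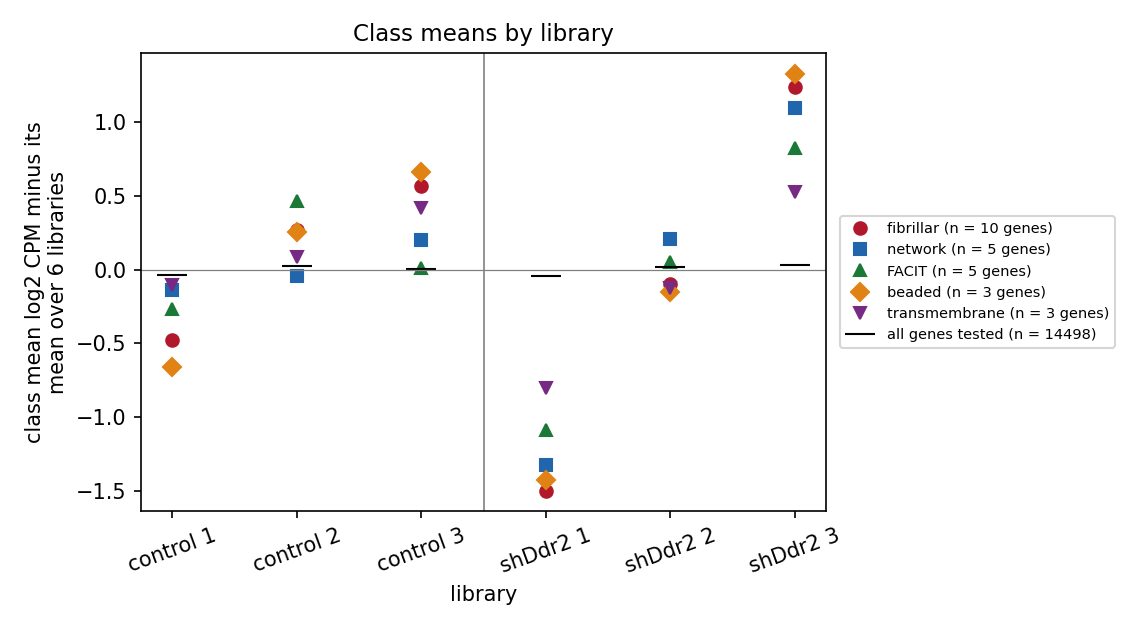
Mean log2 CPM of the genes of a class minus its mean over the 6 libraries (y axis), by library (x axis), with black dashes for all genes tested. Every class shown is lowest in shDdr2 1 and highest in shDdr2 3, transmembrane genes lie closest to 0 in shDdr2 1, and all genes stay within 0.07 log2 units.

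Among fibrillar genes, Col1a1 was at 721, 1429 and 1721 CPM in control 1 to 3, against 235, 1132 and 3583 CPM in libraries labelled shDdr2 1 to 3. The lowest and the highest library carried the same label, and the log2 fold change was 0.36 (SE 0.84, 95% interval -1.61 to 2.32). Col1a2, its partner chain, was at 599.8, 1089.5 and 1414 against 272, 960.5 and 2690.2 CPM (0.34, SE 0.74). Col3a1, which encodes the homotrimer of elastic and healing tissue, was at 848, 1375 and 1635 against 563, 1267 and 3269 CPM (0.40, SE 0.61). Type V collagen starts the assembly of fibrils and sets their width. Its chains Col5a2, at 140.3, 289 and 340.3 against 100.2, 215 and 575 CPM (0.21, SE 0.63), and Col5a1, at 89.4, 176 and 236 against 38.9, 156 and 441 CPM, had the order of Col1a1. Col5a3 and Col27a1 had it as well, at 12.5 to 125 and 2.09 to 11.4 CPM. The type XI chains and Col24a1 did not: Col11a1 was lowest in control 2 and Col24a1 in control 1, while Col11a2 had its highest value in control 2.

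The chains of type I collagen did not keep 1 ratio, through the library labelled shDdr2 1. Col1a1 to Col1a2, per length, was 1.08, 1.18 and 1.10 in control 1 to 3. It was 1.06 and 1.2 in libraries labelled shDdr2 2 and 3, but 0.781 in that labelled shDdr2 1. Col3a1 to Col1a1 was 2.55 in that library and 0.972 to 1.25 in the other 5. Over all 6 libraries the chains of type IV and type VI collagen stayed closer: Col4a1 to Col4a2 ran from 1.40 to 1.73 and Col6a1 to Col6a2 from 0.884 to 1.04. Among the controls the type I ratio varied least, with a log2 SD of 0.068 against 0.112 for type IV and 0.098 for type VI. Between the groups none of these 4 log2 ratios differed by an exact two-sided permutation test, with p from 0.3 to 0.7 where 0.1 is the smallest possible, and adjusted p of 0.6 to 0.7 over the 4. By replicate number, Col4a1 to Col4a2 was higher in shDdr2 in 3 of 3 pairs, by 0.102, 0.126 and 0.0788 on the log2 scale, and Col6a1 to Col6a2 in 3 of 3, by 0.0873, 0.129 and 0.0421. An exact two-sided paired permutation test gave p = 0.25 for each, the smallest that 3 pairs allow. The differences were -0.17, 0.40, 0.10 and 0.09, in the order given, and that of the first 2 came to 0.01 and -0.02 without the library labelled shDdr2 1.

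Network genes showed 3 patterns. Col4a1 and Col4a2, the chains of every basement membrane, whose genes lie head to head on chromosome 8 with first exons that share 22 bases, had the order of Col1a1. Col4a1 was at 194, 304 and 407 against 74.6, 287 and 663 CPM (log2 fold change 0.18, SE 0.69), and Col4a2 at 117, 208 and 283 against 42.0, 181 and 437 CPM (0.12, SE 0.74). Col8a1 and Col8a2, short-chain collagens of vessels and other matrices, were higher in shDdr2 2 and 3 than in any control but lowest in shDdr2 1. Col8a1 was at 85.0, 90.9 and 116 against 71.8, 141 and 249 CPM (0.66, SE 0.42), and Col8a2 at 11.1 to 14.2 against 4.405, 17.1 and 40.5 CPM. Col4a5, a chain of specialised epithelial basement membranes, had its highest level in control 1, at 93.5, 42.4 and 34.5 against 32.3, 53.3 and 51.5 CPM (-0.31, SE 0.41). That difference was 0.26 without control 1. Per length, Col4a5 to Col4a1 was 0.488 in control 1 and 0.439 in the library labelled shDdr2 1, against 0.0786 to 0.188 in the other 4.

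Among FACIT genes, Col12a1, which coats fibrils in loaded tissue, was the most abundant, at 234, 251 and 372 against 130.4, 174 and 583 CPM (0.05, SE 0.56). Col16a1 was at 20.4, 42.5 and 59.2 against 15.02, 31.9 and 83.5 CPM (0.10, SE 0.63). Col14a1, another fibril-coating chain, was at 11.3, 23.0 and 24.9 against 4.69, 30.9 and 67.3 CPM and had the largest fold change of the family, 0.80 (SE 0.79), which was -0.14 without the library labelled shDdr2 3. Here 2 libraries labelled shDdr2 lay above all controls and 1 below. Col20a1 lay between 1.81 and 5.62 CPM (-0.26, SE 0.46), and Col9a3, of cartilage, between 3 and 34 counts per library.

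The type VI genes encode the chains of 1 heterotrimer and shared 1 order of the libraries. Col6a1 was at 64.8, 119.6 and 159.5 against 34.1, 104 and 281 CPM (0.28, SE 0.70), Col6a2 at 78.8, 154 and 179 against 39.0, 122 and 306 CPM (0.18, SE 0.67), and Col6a3 at 94.9, 176 and 265 against 72.3, 111 and 353 CPM (0.00, SE 0.62). In each the lowest and the highest of the 6 values both belonged to libraries labelled shDdr2.

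Col17a1 had the narrowest range of the family, at 1363, 1423 and 1972 against 1006, 1698 and 1857 CPM (-0.06, SE 0.31, 95% interval -0.80 to 0.68). Per length, its ratio to Col1a1 was 4.53 in the library labelled shDdr2 1 and 0.550 in that labelled shDdr2 3, with 1.06 to 2.01 in the other 4. Col18a1, whose protein carries the endostatin fragment, ranged by 2.82-fold, at 119.7, 120.4 and 176 against 77.8, 170.1 and 219.7 CPM (0.17, SE 0.38). Col15a1, the related multiplexin, ranged by 11.1-fold, from 13.7 to 153 CPM (0.12, SE 0.75). Col7a1, the anchoring fibril collagen beneath epithelia, was at 23.2, 30.9 and 78.4 against 17.9, 25.9 and 49.6 CPM (-0.50, SE 0.54). It was lower in shDdr2 for all 3 replicate numbers, as were Col23a1 and Col20a1. For Col20a1 the log2 differences of numbers 2 and 3 were only -0.029 and -0.012. The share of all genes lower for all 3 numbers is not given here, so this is a description. Col23a1, a transmembrane chain, was at 8.41, 13.4 and 15.8 against 5.20, 6.53 and 12.7 CPM (-0.62, SE 0.42). Without control 3 the Col7a1 difference was 0.20. Col13a1 (0.15, SE 0.48) and Col28a1 (0.40, SE 1.05) were at 2.60 to 9.59 CPM and at 1 to 60 counts.

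Among genes that fold, modify and process collagen, 16 were lowest in the library labelled shDdr2 1 (53.3%, against 34.6% of all genes tested). In that labelled shDdr2 3, 17 were highest (56.7%, against 20.3%). Of 31 listed genes 30 were tested, 0 passed the edgeR test, 25 were fitted higher and 5 lower, and the median was 0.18 (0.04 over all genes). All 5 lysyl oxidases, which crosslink collagen (Lox and Loxl1 to Loxl4), were lowest in the first and highest in the second of these libraries. Lox was at 61.8, 155 and 136 against 48.2, 126 and 263 CPM. Of the proteases that trim the amino end of procollagen, Adamts2 had the same ends, at 12.4, 19.7 and 35.3 against 6.35, 15.9 and 56.7 CPM, while Adamts3 was highest in shDdr2 1 (2.17 CPM) and lowest in shDdr2 3 (0.689 CPM), and Adamts14 was lowest in control 1 and highest in control 3. Values of 2 of these 30 (6.67%, near the 4.32% of all genes) showed no overlap between groups, both subunits of prolyl 4-hydroxylase, the enzyme that stabilises the helix. P4ha3 was at 14.5, 20.0 and 23.0 against 34.2, 26.4 and 31.4 CPM (log2 fold change 0.68, SE 0.25, adjusted p = 1.00 in edgeR, 0.0268 before adjustment). P4ha1 was at 130.0, 136 and 134 against 115, 104 and 116 CPM (-0.25, SE 0.17). P4ha2, the remaining catalytic subunit, was at 162, 119 and 154 against 99.9, 98.6 and 139 CPM (-0.37, SE 0.23), with overlap. P4ha3 had its highest level in the library labelled shDdr2 1, where the collagens were lowest.

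Collagen receptors also had 0 calls among 9 tested of 10 listed, with a median edgeR log2 fold change of 0.21 (0.04 over all genes). Their mean log2 CPM had the other sign, at -0.11 for shDdr2 minus control. Of the 9, 4 were both lowest in shDdr2 1 and highest in shDdr2 3 (44.4%, against 14.6% of all genes tested). Itga11, the fibroblast integrin chain for fibrillar collagen, was at 6.90, 5.80 and 7.79 against 1.52, 6.43 and 25.5 CPM, and Mrc2, which takes up collagen for breakdown, at 30.2, 42.3 and 46.3 against 11.6, 35.4 and 90.1 CPM. Itga2, an epithelial collagen receptor, had another order, with 55.3, 21.5 and 50.6 against 13.6, 21.3 and 42.1 CPM (-0.73, SE 0.50). Itga10 lay between 2.74 and 6.53 CPM (-0.39, SE 0.38).

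Fibroblast, endothelial and Schwann cell markers had their lowest summed level in shDdr2 1 and their highest in shDdr2 3, as most collagens did, and macrophage, adipocyte and, with Des, pericyte markers did not. The summed CPM of 8 fibroblast markers was 279, 363 and 417 in control 1 to 3, against 206, 373 and 728 in libraries labelled shDdr2 1 to 3. All 8 were listed, 7 were lowest in that labelled shDdr2 1 and 8 highest in that labelled shDdr2 3. Over all genes tested these shares were 34.6% and 20.3%. The 8 endothelial markers summed to 116, 219 and 218 against 76.6, 176 and 351 CPM. The 8 pericyte and smooth muscle markers summed to 319.8, 474 and 499 against 398, 639 and 800.2 CPM, lowest in control 1. Des, which skeletal muscle also expresses, was at 6.20, 13.3 and 39.5 against 99.1, 336 and 78.1 CPM, and the other 7 summed to 314, 461 and 459.6 against 299, 303 and 722 CPM, lowest in shDdr2 1. The 6 macrophage markers summed to 175, 468 and 374 against 169, 379 and 425 CPM, highest in control 2. Adipocyte markers (2 of 6 listed) summed to 20.3, 35.8 and 27.7 against 49.6, 15.2 and 37.5 CPM, highest in shDdr2 1. Schwann cell markers (2 tested, 4 listed) summed to 102, 114 and 101 against 68.2, 112 and 115 CPM.

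Keratinocyte markers (9) summed to 10974, 10319 and 12120 against 13819, 11582 and 10048 CPM. Their sum and ribosomal protein genes ran the other way at the ends, while single keratinocyte markers were split. Krt1, Krtdap and Dsg1a were highest in shDdr2 1 and lowest in shDdr2 3, and Krt10 and Lor were highest in shDdr2 1. Flg was lowest in shDdr2 1, and Ivl was at 58.8 CPM there against 92.1 CPM in shDdr2 3. Krt5, also on the urothelial list, and Krt14 hold most of the sum and were highest in control 3. The mean log2 CPM of the keratinocyte list deviated from its own mean by 0.99 in the library labelled shDdr2 1 and by -0.41 in that labelled shDdr2 3, and ribosomal protein genes took 5.39% and 2.05% of counts there, with 2.36% to 3.55% in the other 4. The sum of the skeletal muscle markers (9) did not overlap between the groups, at 8.74 to 110.3 against 438 to 3333 CPM, unlike that of the collagens. Among these 9 markers, 0 passed the edgeR test. Values of 8 (88.9%, against 4.32% of all genes) showed no overlap. Myh1 overlapped, at 0.216, 6.15 and 21.6 against 13.9, 99.5 and 26.8 CPM. The part of these cell types in the collagen levels was not tested.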

How the data were processed

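The deposited whole-number counts per Entrez gene were used as counts. Per the submitters' processing notes RSEM 1.2.31, Bowtie2 2.1.0 and limma were used with GRCm38.p5, so the counts may be rounded estimates. The log2 values that the authors deposited beside them, the log2 of a normalized count plus 1, served as an alternative. Symbols matched 14876 of 15295 rows, and 419 stayed unnamed. Counts were filtered with filterByExpr (14498 genes kept), scaled by TMM and tested with edgeR 4.0.16 (robust quasi-likelihood fit, R 4.3.3) between 3 and 3 libraries. Alternatives were other scalings and filters, DESeq2 1.42.0, limma 3.58.1 on voom weights, a replicate block and leaving out each library. Libraries with the same number deviated together (correlations 0.299, 0.267 and 0.253). Control 3 and shDdr2 2 reached 0.254, so these correlations do not establish pairs. The main edgeR test did not use the numbers. They were taken as pairs in the replicate block, in the differences by number and in the paired test of ratios. The title is the only source of these numbers and names no pairing. The reach to either side of the 95% interval (log2) was 0.76 for the median gene and 1.55 for the median collagen gene. The paired test of chain ratios, the ratios of Col17a1 and Col4a5, the exon union, the authors' log2 values and the marker sum without Des were added after seeing the data. Class means averaged log2 CPM (prior count 2). Levels per kb used the longest coding transcript. By rule, up to 4 genes of each class with the highest level per kb, both chains of each ratio and Ddr2 are given in full, other collagen genes by range, and from other lists the 2 genes with the smallest p. Col7a1, Col14a1, P4ha1, Lox, Adamts2, Itga11 and Mrc2 were singled out after their values were seen, where the rule did not already name them. Members and lists were chosen with earlier results of these data known, and the urothelial list was added after the files were read. The scripts were tested on simulated data.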

Additional observations from a re-analysis of the deposited data

How the results depend on the processing

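No collagen gene passed the adjusted threshold in any fit run. DESeq2 called 40 genes over all genes tested where edgeR called 0, none of them a collagen. The number of collagen genes fitted higher, 20 with all libraries, was 6 with limma voom and 7 with the replicate block, and the median log2 fold change was -0.197 and -0.189. With limma voom these log2 fold changes reversed: Col1a1 -0.325, Col1a2 -0.154, Col5a2 -0.0692, Col5a1 -0.164, Col4a1 -0.276, Col4a2 -0.364, Col12a1 -0.25, Col16a1 -0.0879, Col6a2 -0.191, Col6a1 -0.102, Col6a3 -0.218, Col15a1 -0.377, Col13a1 -0.00552, Col28a1 -0.236. With the replicate block these reversed: Col1a1 -0.299, Col1a2 -0.133, Col5a2 -0.0566, Col5a1 -0.154, Col4a1 -0.241, Col4a2 -0.342, Col12a1 -0.248, Col16a1 -0.118, Col6a2 -0.193, Col6a1 -0.104, Col6a3 -0.215, Col15a1 -0.401, Col13a1 -0.0143. Without the filter on low counts this reversed: Col6a3 -0.00139. The block changed no call. The cause was not tested. Leaving out 1 library at a time gave log2 differences of -0.299 to 0.0119 for the ratio of Col1a1 to Col1a2 and of -0.0199 to 0.676 for Col3a1 to Col1a1. Differences of class means ran from -0.918 to 0.452 (fibrillar), -0.567 to 0.649 (network), -0.588 to 0.368 (FACIT) and -0.878 to 0.505 (beaded), so each changed sign. The median collagen log2 fold change ran from -0.760 to 0.529 and the number of collagen genes fitted higher from 1 to 25. Log2 fold changes of single genes that reversed ran from -0.492 to 0.815 (Col3a1), from -0.917 to 0.866 (Col1a1), from -0.748 to 0.816 (Col1a2), from -0.705 to 0.619 (Col5a2), from -0.78 to 0.832 (Col5a1), from -1.39 to 0.319 (Col5a3), from -0.822 to 0.309 (Col27a1), from -0.568 to 0.82 (Col11a1), from -1.34 to 0.389 (Col24a1), from -0.737 to 0.653 (Col4a1), from -0.866 to 0.602 (Col4a2), from -0.572 to 0.262 (Col4a5), from -0.183 to 1.23 (Col8a2), from -0.91 to 0.4 (Col12a1), from -0.793 to 0.498 (Col16a1), from -0.142 to 1.31 (Col14a1), from -0.692 to 0.0557 (Col20a1), from -1.14 to 0.198 (Col9a3), from -0.772 to 0.639 (Col6a2), from -0.736 to 0.742 (Col6a1), from -0.962 to 0.4 (Col6a3), from -0.161 to 0.491 (Col18a1), from -0.988 to 0.611 (Col15a1), from -0.231 to 0.164 (Col17a1), from -0.412 to 0.498 (Col13a1), from -1.01 to 0.201 (Col7a1), from -0.791 to 1.37 (Col28a1), from -0.281 to 0.709 (Ddr2). The 95% interval of the median collagen gene reached 1.55 log2 units either side (0.737 in Col17a1), and Col9a3, Col11a2 and Col28a1, with under 10 counts in a library, are also limited by depth.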
